A study of Homo sapiens with 2 samples.

Results

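The NBPF genes (neuroblastoma breakpoint family) are described here as they appear in a list of RNA regions recovered with a catenin immunoprecipitation (IP). All rows with a symbol starting with NBPF were taken: 8 of the 1658 gene symbols, 29 of the 4439 transcripts and 41 of the 6195 peaks. The family was chosen by its fold enrichment and tag counts in this same list, so the levels below are a description and carry no test. The RNA came from MDA-MB-231 cells, a long-used line of human triple-negative breast cancer with mesenchymal traits. The series holds 1 library named B-catenin and 1 named B-input, both from this cell line and with no treatment named. The values below belong to the B-catenin library, and the input on its own was not analysed here. With 1 library, no difference below has a replicate check, and the intervals cover counting error only.

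NBPF genes arose by repeated duplication and lie on human chromosome 1. Their proteins are built from tandem copies of the Olduvai domain, formerly called DUF1220, whose number rose sharply in the human lineage. Because the copies are nearly the same in sequence and each is itself a chain of repeats, a short read can often be placed equally well on several genes or at several points of one transcript. The rule by which the authors placed such reads is unknown here. The same reads may therefore stand behind the values of several symbols, and the symbols are not independent observations.

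A gene is described by the transcript with the most tags summed over its peaks, called its representative. Tags are the sequenced fragments counted in a peak, tags per kb relate that number to the length of the peak, and fold is the enrichment ratio deposited by the authors for each peak. Which library or background forms the denominator of the fold is unknown here, so it is not to be read as IP over the named input. Positions count nucleotides (nt) along the transcript, and upstream and downstream mean lower and higher counts. The summit is placed from the start of its peak, since the summit value never exceeded the peak length.

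Start regions of 3 copies show how alike some of these genes are. RefSeq windows for GRCh38.p14, from 250 bases before to 50 after an annotated start, were matched by symbol to 6 of the 8 genes with a peak, with none matched for NBPF20 and NBPF26. The same 90 bases before the start are printed for NBPF9 (chr1:149103562-149103651, minus strand) and NBPF15 (chr1:144461670-144461759, minus strand), which both have peaks, and for NBPF8 (chr1:120414927-120415016, plus strand), which has none in the list. Capitals mark a base that differs from NBPF9.
NBPF9: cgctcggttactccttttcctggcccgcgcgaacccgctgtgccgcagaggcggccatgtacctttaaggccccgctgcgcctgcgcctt
NBPF15: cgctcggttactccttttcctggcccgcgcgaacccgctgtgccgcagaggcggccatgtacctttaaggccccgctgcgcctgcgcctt
NBPF8: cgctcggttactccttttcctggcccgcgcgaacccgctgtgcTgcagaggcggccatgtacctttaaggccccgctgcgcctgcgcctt
NBPF9 and NBPF15 were the same over this stretch and NBPF8 differed at 1 base. At the ungapped alignment with the highest share of identical bases, the window of NBPF15 differed from that of NBPF9 at 8 of 290 bases. It differed from that of NBPF8 at 3 of 290.

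Other copies paired differently. The window of NBPF10 and the second of NBPF14's windows differed at 1 of 265 bases, and those of NBPF11 and NBPF12 at 9 of 261. Between genes with a peak, all other pairs of windows were far less alike than NBPF9 with NBPF15 and NBPF10 with NBPF14. They shared 32.9% (NBPF9 and NBPF19) to 37.4% (NBPF10 and the first of NBPF14's windows) of bases at their best ungapped alignment. Near identity of start regions therefore holds for some copies and not for the family. The windows of NBPF9 and NBPF15 had a G+C content of 63.3% and 65.0%, against 47.0% for NBPF10, 46.7% for the second window of NBPF14 and 37.0% for NBPF19. The median over 35116 windows of the table was 58.7%. These sequences describe annotated starts and not the peaks, whose own sequence was not used here.

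RefSeq lists 14 protein-coding NBPF genes, all on chromosome 1, and 8 of them had a peak, where 7.89% of the 20052 protein-coding symbols of the table did. The family was chosen on this list, so nothing is read from that difference. In their order along the chromosome, the first 5 genes (NBPF1, NBPF3, NBPF4, NBPF6 and NBPF8) had none. The next 9 were NBPF26, NBPF15, NBPF20, NBPF10, NBPF12, NBPF11, NBPF14, NBPF9 and NBPF19, and of these NBPF11 alone had none. A gene without a peak had no region past the authors' threshold, which says nothing of whether it was expressed. None of the 9 NBPF pseudogene symbols of RefSeq was listed.

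NBPF20, the copy with the longest listed peak of the family, had 1516 tags (Poisson interval 1441 to 1594) on ENST00000369373. They lay in 1 peak from nt 1410 to 17289, 15880 nt long, at 95.5 tags per kb and a fold of 46.88. Among all 1658 genes it ranked 2 by tags and 2 by peak length.

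NBPF10 had 1052 tags (989 to 1118) over 2 peaks of ENST00000583866. The first covered nt 1725 to 3275 with 127 tags at a fold of 48.04, and the second nt 3524 to 11136 with 925 tags at 49.78. NBPF19 had 1020 tags (958 to 1085), also over 2 peaks, on ENST00000621744. Its first peak, at nt 2481 to 3979, held 67 tags at a fold of 15.63, and its second, at nt 4079 to 12947, held 953 at 46.88. The Poisson intervals of NBPF10 and NBPF19 overlap, and both lie below that of NBPF20.

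NBPF14 followed with 704 tags (653 to 758) in 1 peak at nt 1799 to 9087 of ENST00000619423, at a fold of 51.52. NBPF26 had 237 tags (208 to 269) at nt 814 to 2622 of ENST00000609741, at a fold of 50.94. NBPF9 had 225 tags (197 to 256) on ENST00000621645, of which 27 lay at nt 1011 to 2156 at a fold of 6.37 and 198 at nt 2595 to 4155 at a fold of 52.67. NBPF26 and NBPF9 had overlapping intervals, well under that of NBPF14.

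NBPF15 had 107 tags (87.7 to 129) on ENST00000488031, with 19 at nt 641 to 1601 at a fold of 6.37 and 88 at nt 2128 to 3097 at 37.32. NBPF12 had the fewest, 24 tags (15.4 to 35.7) in 1 peak at nt 3302 to 4519 of ENST00000617844, at a fold of 5.79. NBPF20 thus had 63.2 times the tags of NBPF12. Tags per kb of the representatives gave another order, with NBPF26 at 131 (115 to 149), NBPF10 at 114.8 (108 to 122), NBPF19 at 98.4, NBPF14 at 96.6, NBPF20 at 95.5, NBPF9 at 83.1 (72.6 to 94.7), NBPF15 at 55.4 and NBPF12 at 19.7 (12.6 to 29.3). The intervals of NBPF26 and NBPF10 overlapped, and so did those of NBPF19, NBPF14, NBPF20 and NBPF9, so neighbours within these groups were not separated by counting error. The place of NBPF26 rests on 1 transcript, and its median over 6 transcripts was 18.6 tags per kb.

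The 8 representatives together carried 4885 tags, 3.65% of the 133739 tags over all representatives, on 1.66% of the summed peak length and 0.483% of the symbols. Reads counted on more than 1 copy would enter this sum more than once. The median NBPF gene had 470.5 tags, 4998 nt of peak and 96.0 tags per kb, against 41, 1294.5 nt and 29.8 over all genes. A highest fold of at least 10 was reached by 7 of the 8, and by 30.3% of all genes with a peak, in the measure that chose the family. NBPF12 was the exception.

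The 41 peaks fell into 2 classes by fold, with none between 6.37 and 15.63. The lower class held 16 peaks of NBPF9 (7), NBPF26 (5), NBPF15 (3) and NBPF12 (1). Their folds ran from 5.21 to 6.37, their tags from 17 to 27, and their densities from 18.0 to 25.7 tags per kb. The upper class held 25 peaks of every gene except NBPF12, with folds from 15.63 to 55.57, 67 to 1516 tags and 44.7 to 131 tags per kb. The classes were set after the values were seen and overlap in length alone, which ran from 886 to 1441 nt in the lower and from 970 to 15880 nt in the upper.

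**Figure D1:**
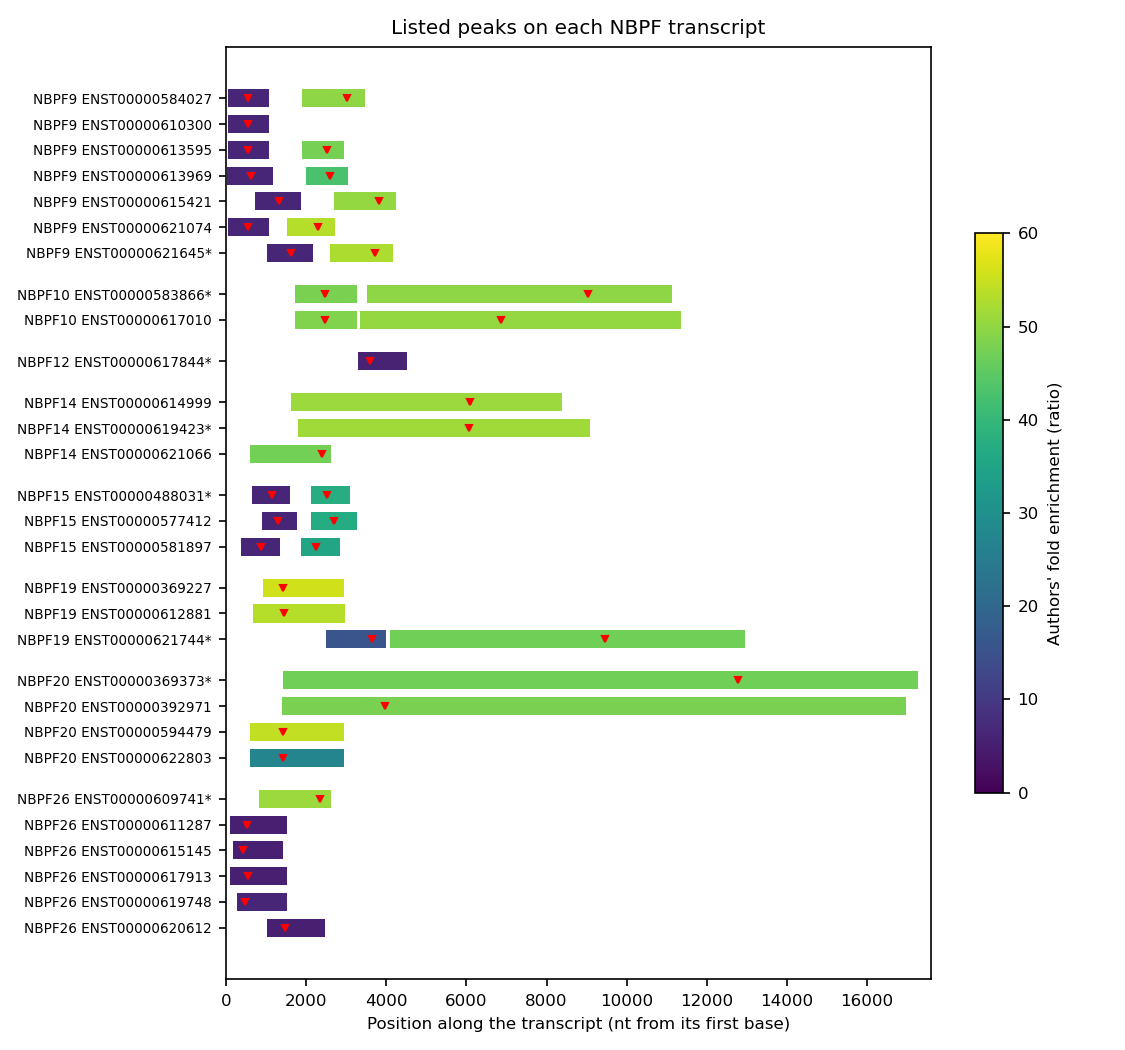
Each row is a listed NBPF transcript and each bar a peak, placed by its position in nucleotides from the first base of the transcript (horizontal axis) and coloured by the authors' fold enrichment. Red triangles mark summits and asterisks the representatives. In NBPF9 and NBPF15 a dark bar (fold 6.37) lies upstream of a brighter one (35.17 to 53.25), and the bars of NBPF10, NBPF14, NBPF19 and NBPF20 reach up to 15880 nt.

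Where both classes occurred on 1 transcript, the lower peak came first. This held for 9 of 9 transcripts, 6 of NBPF9 and 3 of NBPF15. It is an order by position as deposited, and the authors' region labels on these transcripts mostly imply the reverse, as described below. The downstream peak had 5.52 to 8.36 times the fold of the upstream one, 3.81 to 7.5 times its tags and 3.66 to 5.38 times its density. The classes were split by fold and do not overlap in tags or density, so ratios above 1 follow from the split. These 9 transcripts are isoforms of 2 near-identical genes, so they are not 9 separate observations.

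On NBPF9 the upstream peak was nearly the same in all 7 transcripts. It spanned 1012 nt with 26 tags in 4 of them and 1146 nt with 27 tags in the other 3, with a fold of 6.37 in each. The unlisted stretch that followed was 828 nt long in 4 transcripts and 450 and 438 nt in the others that had a second peak. The downstream peak varied more. It held 195, 197 and 198 tags over 1561 nt in ENST00000584027, ENST00000615421 and ENST00000621645, 131 and 99 tags over 1054 nt in ENST00000613969 and ENST00000613595, and 119 tags over 1207 nt in ENST00000621074. The Poisson intervals of both peaks of 1054 nt overlapped (109.5 to 155 and 80.5 to 120.5). ENST00000610300 had the upstream peak alone.

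NBPF15 showed the same arrangement with less variation. All 3 transcripts had 88 tags in the downstream peak, over 970, 970 and 1159 nt, at folds of 37.32, 35.17 and 36.88. Upstream they had 19, 19 and 17 tags at a fold of 6.37. The unlisted stretch between the peaks was 526 nt in ENST00000488031 and ENST00000581897 and 337 nt in ENST00000577412.

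NBPF26 had 6 listed transcripts, and each carried 1 peak. On ENST00000609741 it was of the upper class. The other 5 had 24 or 26 tags at folds of 5.21 or 6.37, over 1441 nt in 3 transcripts and 1252 nt in 2, starting between nt 83 and 1027. Without ENST00000609741, NBPF26 would resemble NBPF12, with a peak of the lower class alone.

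Regions labelled by the authors as 3' untranslated mostly ran against position. In 8 of 9 comparisons a peak with a 3' label lay upstream of a coding-only peak on its own NBPF transcript, and the 1 peak with a 5' label that could be compared lay downstream. Whether the labels or the positions run the wrong way on these transcripts is unknown here. The labels were therefore not used to place these peaks in the coding or untranslated part, and upstream and downstream refer to position alone.

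Across the 25 peaks of the upper class, the longest peak was 16.4 times the shortest and the largest tag count 22.6 times the smallest. Fold varied 3.56 times and density 2.93 times. The lowest folds were those of the first NBPF19 peak (15.63) and of NBPF20 on ENST00000622803 (27.2), followed by the 3 NBPF15 peaks (35.17 to 37.32). The other 20 peaks had folds from 42.76 to 55.57. Tags and length correlated at r = 0.99 over the 25 peaks, and log fold and log length at 0.241, both given as descriptions since the peaks share a library and may share reads. Summits lay anywhere from 16.6% to 88.4% of the way along the 25 peaks. On the pair of longest NBPF20 peaks, which start 28 nt apart, the summits stood at nt 12788 and nt 3976.

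**Figure D2:**
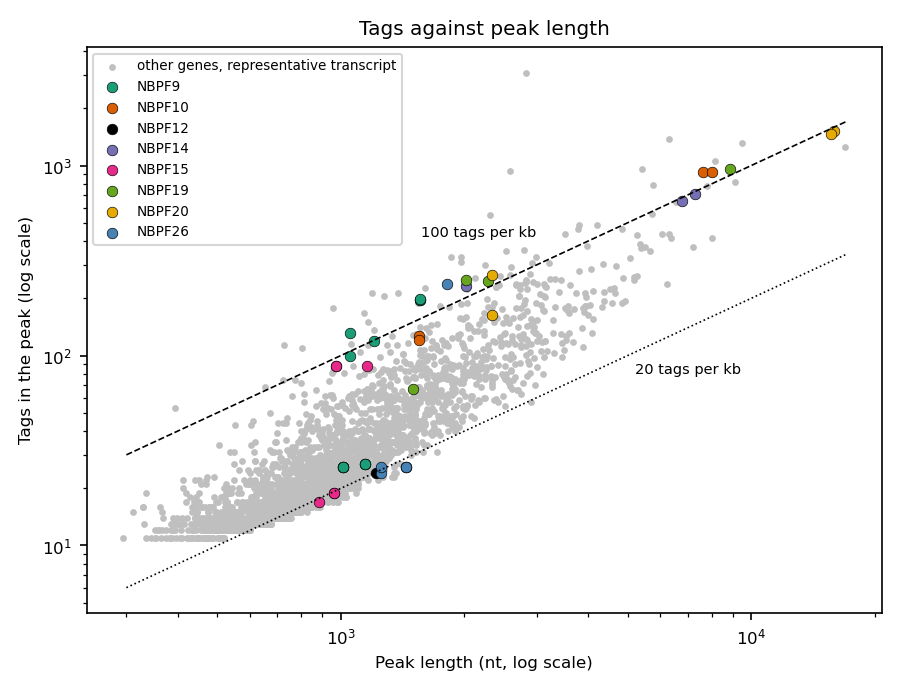
Tags in a peak are plotted against its length in nucleotides, both on log scales, for every listed NBPF peak (coloured by gene) and for the peaks of the representatives of all other genes (grey). Most upper-class NBPF peaks follow the dashed line of 100 tags per kb from about 1 to 16 kb, and the 16 lower-class peaks lie near the dotted line of 20.

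Folds in this list often fall on whole multiples of 0.57882, to within 0.0051, as 71.6% of all 6195 peaks did. Of the 41 NBPF peaks 36 did. Those of the lower class were 9 to 11 steps high. In the upper class 20 of 25 were on a multiple, between 27 and 96 steps. All 3 downstream peaks of NBPF15, 1 of NBPF9 (ENST00000613969) and 1 of NBPF14 (ENST00000621066) were off the multiples.

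Isoforms of most NBPF genes differed in tags by more than those of most other genes. Summed tags of the highest transcript were 9.88 times those of the lowest in NBPF26, 9.3 times in NBPF20, 8.65 in NBPF9, 4.13 in NBPF19 and 3.02 in NBPF14. In NBPF10 (1050 and 1052 tags) and NBPF15 (105 to 107) the isoforms were nearly equal. A ratio of at least 2 was found in 5 of the 7 NBPF genes with several transcripts and in 24.4% of the 1064 genes with several. The median ratio over the 1057 other genes was 1.13, with an upper quartile of 1.92, and 36.0% of them had the same count on each transcript. Large ratios were not particular to the family. At least 5 was reached by 3 NBPF genes and by 67 of the others, among them MACF1 at 37.4 and BOD1L1 at 27.2. A gene with few tags has less room for a large ratio, and the family was chosen with its tag counts. Whether 5 of 7 differs from the background was not tested, because the genes share sequence.

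**Figure D3:**
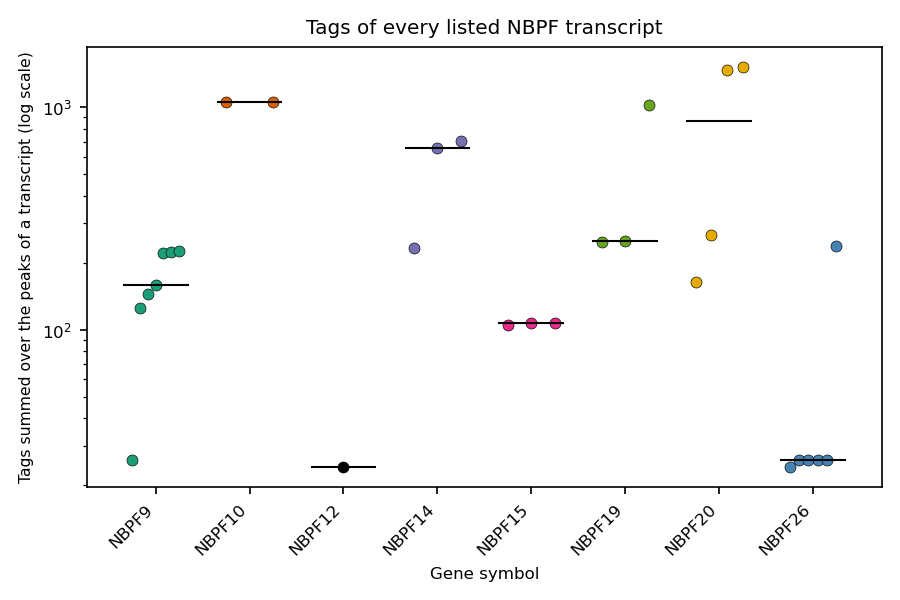
Each point is a listed transcript, with tags summed over its peaks on a log scale (vertical axis) by gene symbol (horizontal axis), and the line is the median over the transcripts of that gene. The points of NBPF9, NBPF20 and NBPF26 span up to 9.88-fold, and those of NBPF10 and NBPF15 nearly coincide.

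In NBPF20, NBPF19 and NBPF14 the gap between isoforms followed peak length. NBPF20 had 1516 and 1473 tags on ENST00000369373 and ENST00000392971, with peaks of 15880 and 15598 nt, and 265 and 163 on ENST00000594479 and ENST00000622803, with peaks of 2335 nt. NBPF19 had 1020 tags on ENST00000621744 and 250 and 247 on ENST00000369227 and ENST00000612881, where the peaks were 2016 and 2282 nt long. NBPF14 had 704, 654 and 233 tags, the last over 2016 nt of ENST00000621066. In NBPF14 the short isoform had 115.6 tags per kb (101.2 to 131.4) against 96.4 and 96.6, with overlapping intervals. In NBPF19 the short isoforms had 124 and 108 against 98.4, which pools both peaks of ENST00000621744. Its second peak alone had 107.5 (100.7 to 114.5), an interval that overlaps that of the 124 (109.1 to 140.4). In NBPF20 the short isoforms went both ways, with 113.5 and 69.8 against 95.5 and 94.4.

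NBPF20 also held a case of equal positions and unequal tags. ENST00000594479 and ENST00000622803 both had a peak at nt 604 to 2938, with summits 7 nt apart. The first had 265 tags (234 to 299) at a fold of 54.41 and the second 163 (139 to 190) at 27.2. The ratio in tags was 1.63, and the intervals do not overlap. Both counts may share reads, so the intervals do not measure the spread between them. A peak of NBPF14 on ENST00000621066 also began at nt 604, but ended at 2619.

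No pair of NBPF symbols had a peak of the same length with the same number of tags, over any listed transcript (0 of 28 pairs). NBPF14 and NBPF19 were the single pair with peaks of equal length, 2016 nt, holding 233 and 250 tags and starting at nt 604 and 913. Within 1 symbol, 13 pairs of transcripts shared a peak of the same length and tags. By place along the transcript, 9 of the 28 pairs of representatives overlapped by at least 50% of the longer peak, among them NBPF10 with NBPF14 and NBPF19 with NBPF20, and over any listed transcript 19 did. At 80% overlap the count was 1 for representatives, NBPF9 with NBPF19, and 9 over any transcript. Places on different transcripts are counted from different first bases, so they do not by themselves show the same sequence.

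Other families of near-identical genes were also listed. Of 24 families searched by the start of their symbols, 7 had a gene with a peak, 12 genes in all, with folds from 4.63 to 13.89, 15 to 57 tags and 20.6 to 31.9 tags per kb. The number of genes in these families was not counted. The 12 can therefore not be set beside the 7.89% of all protein-coding symbols with a peak. RGPD5 and RGPD6, which resemble the nuclear pore protein RANBP2 and carry a GRIP domain, had the same pair of peaks with 44 and 13 tags and a highest fold of 10.42, while RGPD8 had 1 peak of 33 tags at 10.42. GOLGA8A and GOLGA8B, golgin copies, both had 19 tags over 894 nt. SRGAP2B and SRGAP2C, human-specific partial copies of SRGAP2, had peaks of 25 and 26 tags at a fold of 7.52, and SRGAP2B had a second of 13 tags at 5.9. SRGAP2 itself had 15 tags at 6.37. ARHGAP11A, a GTPase-activating protein, had the highest fold of these families, 13.89, and LIMS1, an adaptor of focal adhesions, stood at 8.1. ANKRD36C stood at 6.37 and NPIPB4 at 4.63. These folds ran from below the lower NBPF class to above it, and lay under the lowest of the upper class, 15.63. In the list set up for Olduvai-bearing and neighbouring genes, 4 of 29 had a peak, beside 7.89% of all protein-coding symbols. They were NOTCH2, a Notch receptor, at 9.84 and the 3 SRGAP2 genes already counted above, so nothing is read from this count. PDE4DIP, which carries Olduvai domains outside the NBPF family, had none.

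Long peaks gave a further comparison. Among representatives, 29 peaks were at least 5000 nt long, and 4 of them belonged to NBPF20, NBPF10, NBPF14 and NBPF19. Their folds of 46.88 to 51.52 were reached by 2 of the other 25 long peaks, whose median was 24.89 (9.04 to 89.72). Their densities of 95.5 to 121.5 tags per kb were reached by 8 of the 25, whose median was 72.0 (38.3 to 219.7). Among the 2440 peaks of representatives, of any length, 18 (0.738%) had a fold of at least 40. NBPF genes held 7 of these 18, while they made up 0.483% of the symbols. Fold is the measure that chose the family, so nothing is read from that share. The other 11 had 72.6 to 176.7 tags per kb, a range that includes the NBPF values. A column of the authors' called the score here, whose name was lost, stood at exactly 3100 in 24 peaks and above it in 2. Of the 24, 6 were long NBPF peaks. ENST00000392971 of NBPF20 stood at 2193 despite its 1473 tags.

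**Figure D4:**
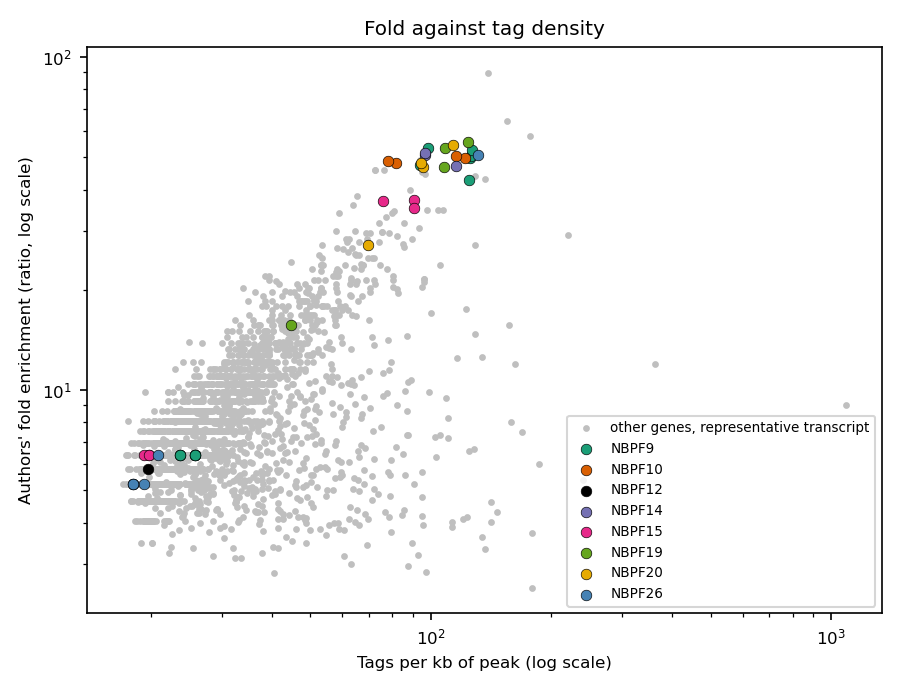
The authors' fold enrichment is plotted against tags per kb of peak, both on log scales, for every listed NBPF peak (coloured by gene) and the peaks of the representatives of other genes (grey). The 25 upper-class peaks run from 15.63-fold at 44.7 tags per kb (NBPF19) to 55.57-fold at 124 (NBPF19), and the 16 lower-class peaks lie between 18.0 and 25.7 tags per kb.

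The genes nearest to the NBPF median in log2 tags per kb, log2 fold and log2 peak length were BAZ1B, AKAP2, PALM2-AKAP2, TLN1 and AKAP12. BAZ1B, a bromodomain protein of chromatin remodelling complexes, had 461 tags over 4842 nt at 95.2 tags per kb and a fold of 45.15, at a distance of 0.16. AKAP2, an A-kinase anchoring protein, had 468 tags at 84.9 tags per kb and a fold of 45.73, and the PALM2-AKAP2 symbol 459 tags at the same fold. Both symbols list a peak of 2387 nt with 229 tags at a fold of 21.53, so they are not separate cases. The 8 NBPF genes themselves lay at 0.72 (NBPF14) to 4.25 (NBPF12) from their median, all farther than these 5 symbols.

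The cell line was checked against marker lists. Of 11 mesenchymal and basal genes, EGFR, FN1 and ZEB1 had a peak, and of 10 luminal and 7 immune and blood genes none had, beside the 7.89% of protein-coding symbols given above. VIM and CD44, both typical of this line, were not listed, so absence from the list does not describe the cells.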

How the data were processed

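Per the labels' protocols, phenol-alcohol extraction of the IP RNA was followed by shearing on a Covaris instrument. The submitters' processing notes name the build hg18, and whether the transcripts of the list belong to that build is unknown here. For the aligner, peak caller, transcript annotation and background of the fold, nothing was found: not given in the sources used here. Tag counts of each peak are whole numbers as deposited. The fold enrichment is a ratio deposited by the authors, and the score is a column of the authors' with a lost header, used as a filter and to note its ceiling. Peak positions run along Ensembl transcripts, so RefSeq coordinates of GRCh38.p14 were used only for the printed start regions and for gene order. Library depth is unknown.

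Representatives were the transcripts with the most tags (ties: lowest identifier). Intervals are exact Poisson intervals at 95%. Each NBPF symbol in the list was named, with the list members that had a peak and the 5 nearest genes. Family symbols that only began with the same letters (TBC1D30, SMNDC1) were left out. Members and lists were chosen with earlier results of these data known. Protein comparisons that had been planned were not run, since no protein table was used here. Calculations used Python 3.11.15, pandas 2.3.3, numpy 2.4.6 and scipy 1.17.1, and the procedures were tested on simulated data.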

Additional observations from a re-analysis of the deposited data

How the results depend on the processing

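No paired analysis was possible because the IP and the input are 1 library each. Of 64 values of single genes (tags, tags per kb, fold and peak length) under another choice of transcript, 46 stayed within the Poisson interval of the main value, or within 1.5 times for fold and length, and 18 moved further. Part of the 46 could not change, so this count overstates stability. NBPF12 has 1 transcript, and in NBPF14, NBPF15 and NBPF26 the representative is also the transcript of highest fold. With the transcript of highest fold, NBPF20 had 265 tags, NBPF19 250 and NBPF9 145. With the median over transcripts they had 869, 250 and 158, and NBPF26 had 26 tags at a fold of 5.21. NBPF26 then had 18.6 tags per kb, the lowest of the 8. The order of the genes by tags and by density therefore depends on the transcript chosen. Counting each transcript on its own gave 29 with a peak and 22 at 10-fold or more, more units by construction. A score of at least 50 or 100 left 7 genes, without NBPF12. At least 5-fold was reached by 8 genes and at least 20-fold by 7. Pairs of representatives with peaks of a length within 5% numbered 4, and 1 pair overlapped by 80%. Over any listed transcript, a comparison added after seeing the data, these were 12 and 9, and 19 pairs overlapped by 50%. Peaks of the lower class rest on 17 to 27 tags, which limits their precision.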
